A study of Homo sapiens with 9 samples.

Results

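BHLHE40, BHLHE41 and 8 genes of the circadian clock were followed across the 3 groups of a siRNA experiment in OEC-M1 cells, a line from a head and neck squamous cell carcinoma (HNSCC) of the mouth. The 10 genes are 10 of the 47753 gene names on the array. They were taken as every non-control probe whose accession maps by RefSeq to BHLHE40, BHLHE41, CLOCK, NPAS2, PER1, PER2, PER3, CRY1, CRY2 or NR1D1, which gave 13 probes, 1 each for 7 of the genes and 2 each for CLOCK, PER2 and PER3. They were selected on the values of BHLHE41, which separated the knockdowns on these same arrays, so its values are described here without a test, and so is the comparison of the 2 knockdowns with each other. The cells were transfected for 72 h with a non-targeting siRNA (si-Control), with siRNA to GATA3 or with siRNA to HIF-1α, the oxygen-regulated subunit of hypoxia-inducible factor 1 (HIF-1), and 3 arrays were made of each. The cells of every group were also held at 1% O2 for 18 h, so no comparison with normal oxygen can be made. Per a figure legend of the study 1 siRNA was used for each target on the arrays, so loss of the target and other effects of that siRNA cannot be told apart, and the labels do not say whether the 3 samples of a group came from separate cultures, so the P values measure the spread between these samples, which may be technical.

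The mammalian clock is a feedback loop of transcription. CLOCK or its relative NPAS2 pairs with BMAL1 on E-box elements and drives the PER, CRY and NR1D1 genes, the PER and CRY proteins return to block that pair, and NR1D1 represses BMAL1. BHLHE40 and BHLHE41, also called DEC1 and DEC2, are basic helix-loop-helix repressors that bind the same E-boxes, are themselves driven by CLOCK and BMAL1, and are known from other cells as genes that HIF-1 induces under low oxygen.

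The promoters of 4 of these genes are shown. As described below, BHLHE41 and PER1 were lower in HIF-1α knockdown than in si-Control cells, and CRY1 was higher in GATA3 knockdown cells. BHLHE40 is the paralogue of BHLHE41, and its arrays overlap between the groups. CLOCK, also higher in GATA3 knockdown cells, is not shown and holds no E-box CACGTG. Each promoter shown is the RefSeq sequence of GRCh38.p14, written 5′ to 3′ on the strand of the gene. It runs from 250 bases before to 50 bases after the start of the gene. Capitals mark the E-box letters CACGTG and the core letters of the hypoxia response element, ACGTG or GCGTG, on either strand. The CACGTG letters contain ACGTG on both strands. BHLHE41 lies at chr12:26124988-26125287 on the minus strand, BHLHE40 at chr3:4979187-4979486 on the plus strand, PER1 at chr17:8152355-8152654 on the minus strand and CRY1 at chr12:107093500-107093799 on the minus strand.
BHLHE41: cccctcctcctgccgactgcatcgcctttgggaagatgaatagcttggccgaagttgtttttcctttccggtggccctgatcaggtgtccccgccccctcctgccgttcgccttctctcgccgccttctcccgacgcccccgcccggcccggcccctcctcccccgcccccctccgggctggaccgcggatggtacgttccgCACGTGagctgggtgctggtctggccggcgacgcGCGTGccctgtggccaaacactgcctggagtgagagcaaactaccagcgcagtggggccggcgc
BHLHE40: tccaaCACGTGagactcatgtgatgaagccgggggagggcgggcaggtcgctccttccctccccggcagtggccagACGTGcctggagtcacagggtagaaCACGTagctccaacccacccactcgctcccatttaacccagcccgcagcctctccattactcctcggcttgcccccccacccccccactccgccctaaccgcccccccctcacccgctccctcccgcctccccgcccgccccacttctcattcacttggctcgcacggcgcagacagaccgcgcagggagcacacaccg
PER1: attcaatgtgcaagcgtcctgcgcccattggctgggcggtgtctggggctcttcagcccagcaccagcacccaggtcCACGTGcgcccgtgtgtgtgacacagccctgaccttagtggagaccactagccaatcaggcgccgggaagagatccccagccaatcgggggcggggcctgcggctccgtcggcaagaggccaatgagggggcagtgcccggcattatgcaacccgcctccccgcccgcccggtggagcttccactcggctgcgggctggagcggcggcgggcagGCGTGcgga
CRY1: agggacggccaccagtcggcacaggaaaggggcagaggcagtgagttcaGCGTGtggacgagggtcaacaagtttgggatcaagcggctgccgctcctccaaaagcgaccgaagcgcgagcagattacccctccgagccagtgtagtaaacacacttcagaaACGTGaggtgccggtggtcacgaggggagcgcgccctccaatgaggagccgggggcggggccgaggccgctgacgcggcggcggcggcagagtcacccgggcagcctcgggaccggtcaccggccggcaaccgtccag

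The E-box letters were found in the promoters of 3 of the 10 genes, BHLHE40, BHLHE41 and PER1, and in 7.26% of all 35116 promoters of the table. In BHLHE41 they begin at position -48 from the start of the gene, in PER1 at -173 and in BHLHE40 at -245. The core letters ACGTG or GCGTG were found in a promoter of 10 of the 10 genes, against 48.4% of all promoters. All 3 genes with an E-box also hold core letters apart from it. These begin at -14 in BHLHE41, at 42 in PER1 and at -174 and -149 in BHLHE40. The other genes hold core letters without an E-box, as CRY1 does at -201 and -88. The D-box letters TTATGTAA were found in PER3 alone among the 10 genes and in 0.886% of all promoters. The letters AGGTCA, the site that a ROR or NR1D1 receptor binds, were found in PER1 and CRY2 and in 13.8% of all promoters. GATA letters, which are AGATAA or else AGATAG, and also TGATAA or else TGATAG, were found in CRY2 alone among them and in 25% of all promoters. The 10 genes have 13 promoters in the table, and a gene counts if any of its promoters matches, while the shares are by promoter. The second promoter of CLOCK holds no core letters. The GC content of the 13 promoters ran from 46.3% to 81% and was not compared with that of all promoters. These are matches of letters in 300 bases, and none of the arrays measured binding.

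Median intensities per array ranged from 992.5 to 2807.5 for si-Control, from 1410 to 2452 for GATA3 knockdown and from 2132 to 3560 for HIF-1α knockdown. The scanner software marked 73.3% to 88.0% of the probes of an array as well above background. This share was 85.8% to 88.0% for si-Control, 73.3% to 83.0% for GATA3 knockdown and 80.0% to 87.0% for HIF-1α knockdown. Every GATA3 knockdown array was thus below every si-Control array in this share. The targeted transcripts were low where the labels say so. GATA3 lay between 9.48 and 10.40 in GATA3 knockdown cells and between 10.71 and 11.48 in si-Control cells on the log2 intensity scale, and HIF1A between 14.13 and 14.59 in HIF-1α knockdown cells and between 16.24 and 17.24 in si-Control cells. Of 8 markers of squamous epithelium, 7 were well above background on 9 of 9 arrays, and the basal keratin KRT5 was on 0 of 9. Of 8 measured markers of leukocytes, endothelial cells and fibroblasts, 6 were also well above background on 9 of 9 arrays, so this mark does not tell expressed from unexpressed genes here. Each slide held 1 array of every group, always at the same position, so the position on the slide and the group cannot be told apart.

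**Figure D1:**
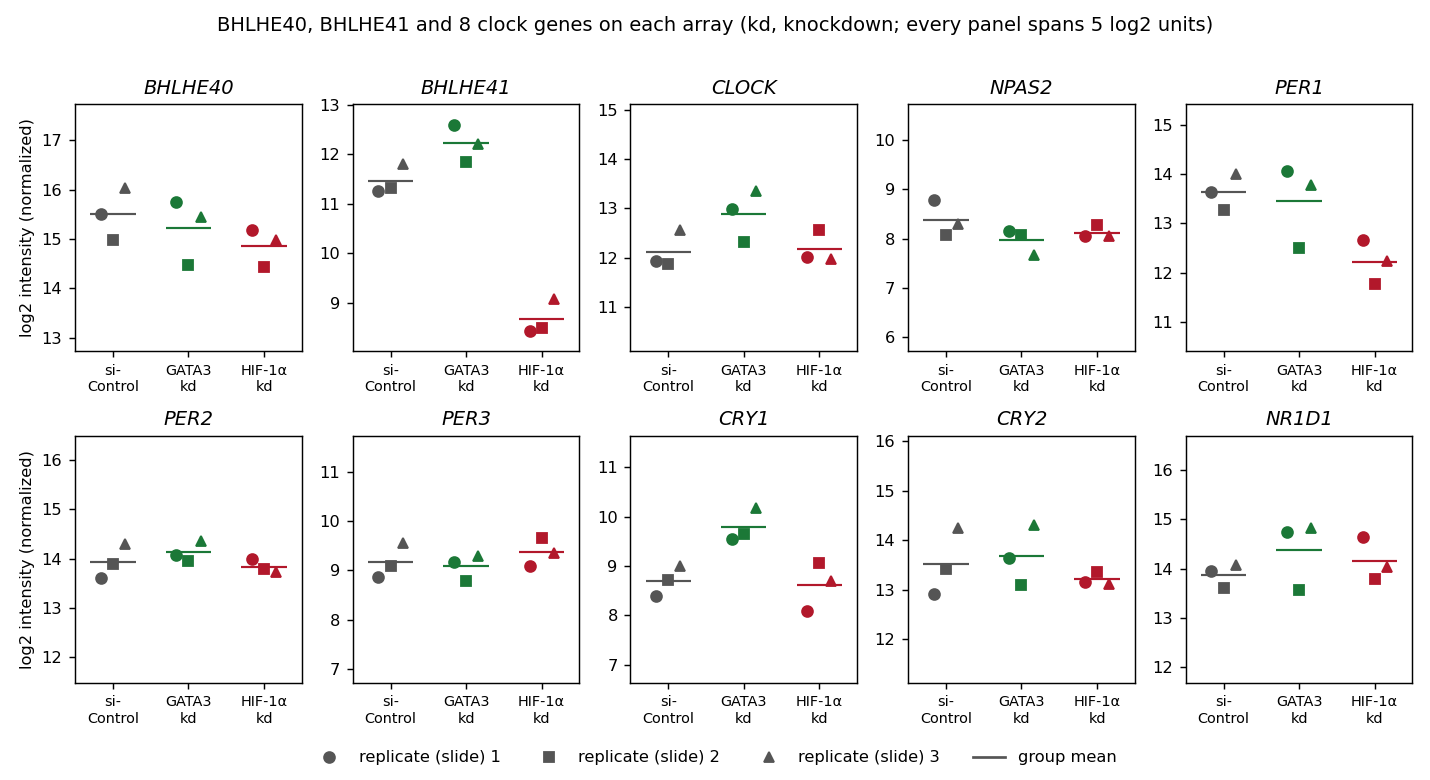
Normalized log2 intensity of the 10 genes (vertical axes, 5 log2 units in each panel) on the 3 arrays of each group (horizontal axes), with a symbol for each replicate, which is also the slide, and a line at the group mean. BHLHE41 lies between 8.42 and 9.07 in HIF-1α knockdown cells and above 11 on the other 6 arrays, CRY1 is highest on the 3 GATA3 knockdown arrays, and PER1 is lower on the HIF-1α knockdown arrays than on the si-Control arrays.

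BHLHE41, the repressor on whose values the genes were selected, had a log2 intensity of 11.26, 11.32 and 11.81 on the 3 si-Control arrays, 12.60, 11.85 and 12.21 on the GATA3 knockdown arrays and 8.42, 8.48 and 9.07 on the HIF-1α knockdown arrays. The 3 groups do not overlap, with HIF-1α knockdown lowest and GATA3 knockdown highest. Against si-Control, BHLHE41 was lower by a log2 difference of -2.81 (SE 0.29) in HIF-1α knockdown cells, which is 6.99-fold, and higher by 0.76 (SE 0.29) in GATA3 knockdown cells, which is 1.69-fold. Between arrays of the same slide the difference in HIF-1α knockdown was -2.84, -2.84 and -2.74, nearly the same on each slide. In GATA3 knockdown it was 1.34, 0.53 and 0.40, so slide 1 gave more than the other two. Leaving out 1 array at a time moved the difference between -2.99 and -2.65 in HIF-1α knockdown and between 0.57 and 0.94 in GATA3 knockdown.

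BHLHE40, its paralogue, had a log2 intensity of 15.51, 14.98 and 16.03 in si-Control cells, 15.75, 14.47 and 15.45 in GATA3 knockdown cells and 15.18, 14.43 and 14.97 in HIF-1α knockdown cells. The arrays of the 3 groups overlap, and in every group the array on slide 2 was the lowest. The difference from si-Control was -0.28 (SE 0.39) in GATA3 knockdown cells, with a limma P of 0.490, and -0.64 (SE 0.39) in HIF-1α knockdown cells, with a limma P of 0.133. With the slide as a block, which compares arrays of the same slide, BHLHE40 passed in HIF-1α knockdown at an unadjusted limma P of 0.031 (SE 0.25, adjusted P 0.581). Within slides the difference was -0.33, -0.56 and -1.05, lower on 3 of 3 slides, where that of BHLHE41 was near -2.8 on each. The lowest array of all 3 groups was on slide 2 for 3 of the 10 genes, BHLHE40, PER1 and NR1D1, and for 5.11% of 39926 genes, which was counted after the values were seen.

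The other 9 genes were tested against si-Control in a fit over all genes. A gene passed at an unadjusted limma P of 0.05, the threshold of the study's methods. At this threshold 2.97% of 47720 genes passed in GATA3 knockdown cells and 5.23% of 47368 in HIF-1α knockdown cells. After Benjamini-Hochberg adjustment over all genes, 0% passed in either by limma. In GATA3 knockdown cells 2 of the 9 genes passed, CRY1 and CLOCK, both higher, and in HIF-1α knockdown cells 1 of 9 passed, PER1, which was lower. With the slide as a block 2 of 9 passed in each, CRY1 and CLOCK in the first and PER1 and BHLHE40 in the second, against 4.99% and 8.41% of all genes. The si-Control arrays are shared by these comparisons. The median log2 difference from si-Control over the 9 genes was 0.15 for the GATA3 siRNA and -0.10 for that to HIF-1α, beside -0.02 and -0.01 over all genes.

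**Figure D2:**
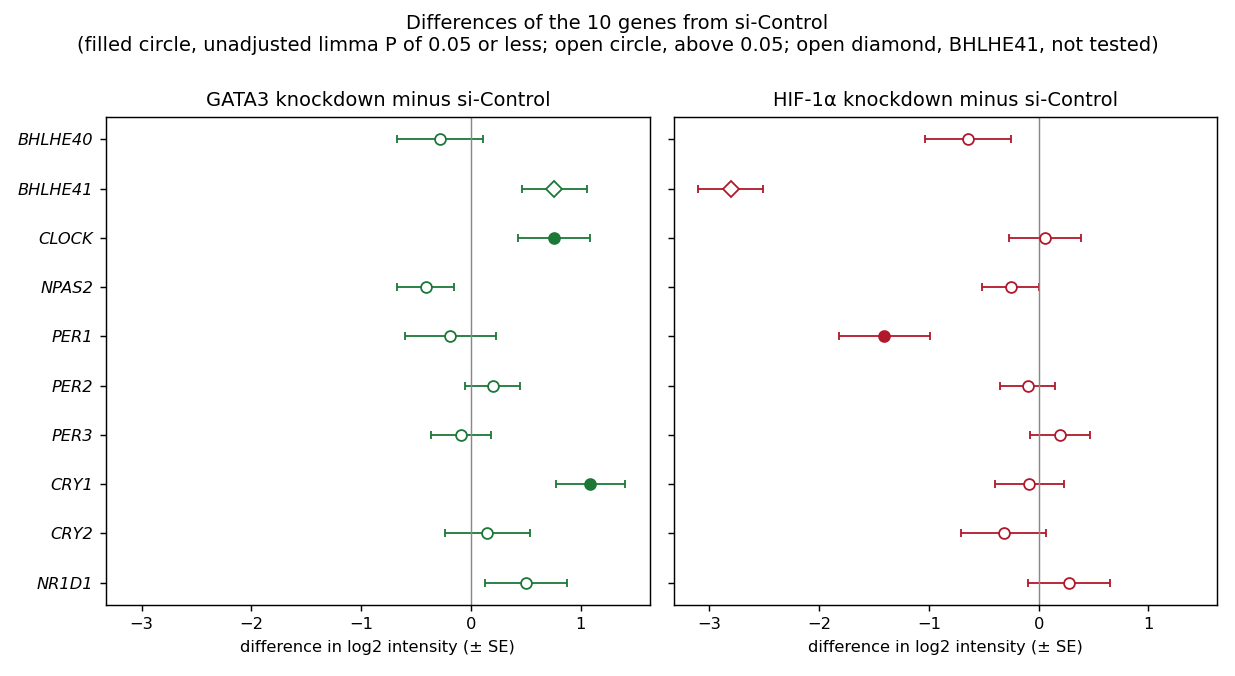
Difference in log2 intensity from si-Control (horizontal axes) for each of the 10 genes (vertical axis) in GATA3 knockdown (left) and HIF-1α knockdown (right), with the standard error of the limma fit as bars. Filled circles passed the unadjusted P of 0.05, and BHLHE41 (diamond) was not tested. CRY1 and CLOCK lie at 1.09 and 0.76 on the left, PER1 at -1.41 and BHLHE41 at -2.81 on the right.

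Of the activators, CLOCK, the DNA-binding partner of BMAL1, had a log2 intensity of 11.94, 11.87 and 12.56 in si-Control cells, 12.98, 12.31 and 13.34 in GATA3 knockdown cells and 12.01, 12.55 and 11.97 in HIF-1α knockdown cells. The GATA3 knockdown arrays reach above the si-Control arrays but overlap them, since GATA3 knockdown replicate 2 was below si-Control replicate 3. CLOCK rose in GATA3 knockdown by 0.76 (SE 0.33) on the log2 scale, at an unadjusted limma P of 0.044 and an adjusted P of 1.00, and was higher on 3 of 3 slides. The call rests on single arrays. CLOCK passed in 3 of the 9 fits that left out 1 array and was above the threshold without si-Control replicate 1 (P 0.111) or 2 (P 0.132), GATA3 knockdown replicate 1 (P 0.102) or 3 (P 0.165), or HIF-1α knockdown replicate 1 or 3 (P 0.057 each) in limma. The other probe of CLOCK, for another transcript, had a difference of 0.51 (SE 0.37) over 2 si-Control and 3 GATA3 knockdown arrays, with a limma P of 0.20. In HIF-1α knockdown cells the difference of CLOCK was 0.06 (SE 0.33).

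NPAS2, which can stand in for CLOCK, was dim. Its log2 intensity was 8.78, 8.07 and 8.29 in si-Control cells, 8.15, 8.08 and 7.66 in GATA3 knockdown cells and 8.05, 8.27 and 8.05 in HIF-1α knockdown cells. The probe was well above background on 3, 0 and 1 of the 3 arrays of these groups, and the groups overlap. By group means in this processing, the fold by which NPAS2 was lower in GATA3 knockdown than in si-Control cells was bounded at 1.32. The bound sets each dim array at the higher of its own signal and the lowest signal called well above background. It covers the dim signal only, not the spread between arrays or the processing. Leaving out 1 array at a time moved the difference between -0.57 and -0.21. The limma P was 0.141, so NPAS2 did not pass. With the scanner's processed signal in place of normexp values the difference was -1.45 rather than -0.41, and it passed at a limma P of 0.013.

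Of the repressors, PER1, an early-responding period gene, had a log2 intensity of 13.63, 13.27 and 14.00 in si-Control cells, 14.05, 12.51 and 13.77 in GATA3 knockdown cells and 12.66, 11.77 and 12.25 in HIF-1α knockdown cells. All HIF-1α knockdown arrays were below all si-Control arrays, and the GATA3 knockdown arrays spread across both. PER1 fell in HIF-1α knockdown cells by a log2 difference of -1.41 (SE 0.42), which is 2.65-fold, at an unadjusted limma P of 0.007 and an adjusted P of 0.823. It was lower on 3 of 3 slides, by -0.97, -1.50 and -1.75. PER1 passed in 9 of 9 fits that left out 1 array, with differences between -1.62 and -1.18. In GATA3 knockdown cells the difference was -0.19 (SE 0.42), with signs that disagreed between slides.

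PER2 and PER3, the other period genes, did not pass in either knockdown on their brighter probes in the fit of the 3 groups. PER2 had 13.61, 13.89 and 14.31 in si-Control cells, 14.07, 13.96 and 14.37 in GATA3 knockdown cells and 13.99, 13.79 and 13.73 in HIF-1α knockdown cells. Its differences from si-Control were 0.20 (SE 0.25) and -0.10 (SE 0.25). The dimmer PER2 probe spread more, at 8.05, 9.71 and 10.95 in si-Control cells, 10.28, 9.96 and 12.04 in GATA3 knockdown cells and 7.95, 9.51 and 9.69 in HIF-1α knockdown cells. Its si-Control arrays alone spanned nearly 3 log2 units, and its difference of 1.19 (SE 0.78) in GATA3 knockdown did not pass (limma P of 0.158). PER3 had 8.88, 9.09 and 9.57 in si-Control cells, 9.18, 8.78 and 9.29 in GATA3 knockdown cells and 9.10, 9.67 and 9.35 in HIF-1α knockdown cells, with overlap of all groups and differences of -0.09 (SE 0.27) and 0.19 (SE 0.27). With array brightness, the median log2 signal of each array, as a covariate, this probe of PER3 passed in HIF-1α knockdown at 0.49 and a limma P of 0.023, as did 7.83% of all genes. The dimmer PER3 probe exceeded background clearly on 1 array of 9. In HIF-1α knockdown its difference from si-Control was 0.68 (SE 0.27), at an unadjusted limma P of 0.031 in the fit by probe (adjusted P 0.828). The 2 probes of PER3 thus differ in their calls. The dimmer probe was well above background on 0 of 3 si-Control and 1 of 3 HIF-1α knockdown arrays. The rule used for NPAS2 would put the fold at 1.53. Most arrays of the higher group were dim too, so this value is not read as a bound.

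CRY1, a cryptochrome that blocks CLOCK and BMAL1, had a log2 intensity of 8.38, 8.72 and 9.003 in si-Control cells, 9.55, 9.64 and 10.18 in GATA3 knockdown cells and 8.09, 9.07 and 8.70 in HIF-1α knockdown cells. The 3 GATA3 knockdown arrays lie above the other 6 arrays, and the other two groups overlap. CRY1 rose in GATA3 knockdown cells by 1.09 (SE 0.32) on the log2 scale, which is 2.12-fold, at an unadjusted limma P of 0.006 and an adjusted P of 1.00. The difference within slides was 1.17, 0.92 and 1.18, and CRY1 passed in 9 of 9 fits that left out 1 array, between 0.90 and 1.26. In HIF-1α knockdown cells it was -0.08 (SE 0.32), with the probe well above background on 1 of 3 arrays.

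CRY2, the second cryptochrome, had 12.92, 13.42 and 14.24 in si-Control cells, 13.63, 13.08 and 14.31 in GATA3 knockdown cells and 13.16, 13.35 and 13.11 in HIF-1α knockdown cells. The groups overlap, and the differences from si-Control of 0.15 (SE 0.39) and -0.32 (SE 0.39) did not pass. NR1D1, a nuclear receptor that represses BMAL1, had 13.96, 13.60 and 14.08 in si-Control cells, 14.75, 13.56 and 14.82 in GATA3 knockdown cells and 14.63, 13.79 and 14.03 in HIF-1α knockdown cells. Its difference of 0.50 (SE 0.37) in GATA3 knockdown did not pass with all arrays (limma P of 0.212). It passed without GATA3 knockdown replicate 2, at 0.90 with a limma P of 0.018, as did 2218 of 47710 genes. In HIF-1α knockdown the difference of NR1D1 was 0.27 (SE 0.37).

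**Figure D3:**
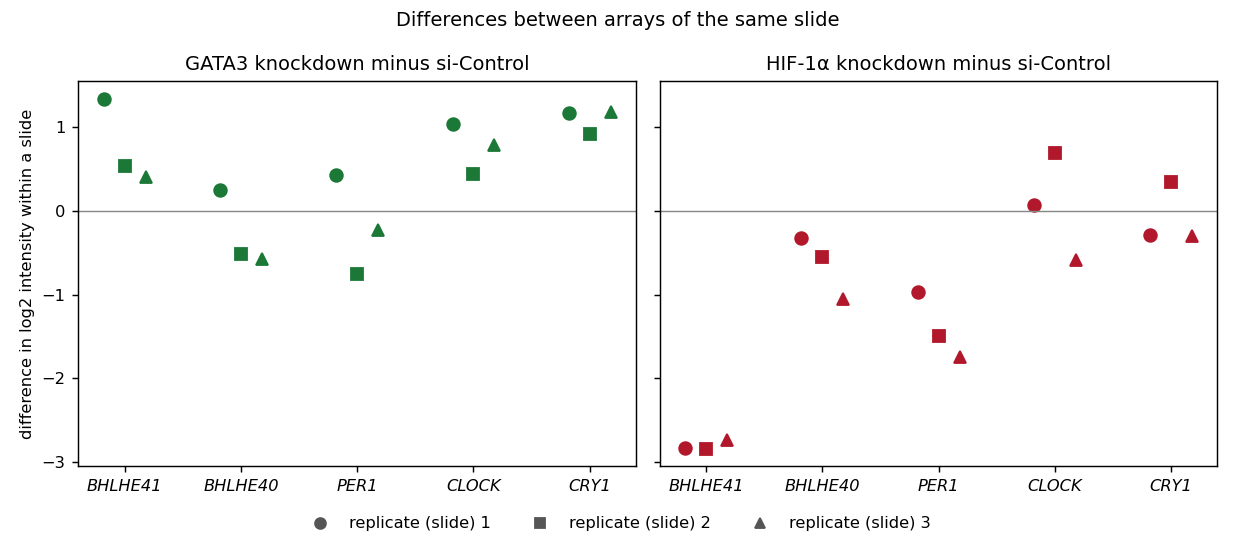
Difference in log2 intensity (vertical axis) between the knockdown array and the si-Control array of the same slide for 5 of the genes (horizontal axis), with a symbol for each slide. BHLHE41 lies between -2.84 and -2.74 in HIF-1α knockdown, PER1 and BHLHE40 are below 0 on 3 of 3 slides there, and CRY1 and CLOCK are above 0 on 3 of 3 slides in GATA3 knockdown.

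Leaving aside BHLHE41, on which the genes were selected, the arrays of GATA3 knockdown and si-Control did not overlap for 1 of the 9 genes, CRY1, where those of 6.03% of all genes did not. Those of HIF-1α knockdown and si-Control did not overlap for 1 of 9, PER1, where 13.3% of genes did not. Between the knockdowns, where the choice of BHLHE41 fixes the contrast, the arrays of BHLHE41 and CRY1 did not overlap, against 22.8% of all genes, and nothing is read from this count. GATA3 knockdown cells exceeded HIF-1α knockdown cells in BHLHE41 by 3.56 (SE 0.29) on the log2 scale, or 11.8-fold, CRY1 by 1.17 (SE 0.32), although its probe was well above background on 1 of the 3 HIF-1α knockdown arrays, PER1 by 1.22 (SE 0.42) with overlapping arrays and CLOCK by 0.70 (SE 0.33). BHLHE40 differed by 0.36 (SE 0.39) and NR1D1 by 0.22 (SE 0.37). NPAS2 and PER3 had the higher mean under HIF-1α siRNA and the other genes under GATA3 siRNA. The share of all genes in each direction was not counted, and BHLHE41 chose this contrast, so nothing is read from these directions.

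Of 21 other genes of the clock considered here, 20 were measured and CSNK1E had no matched probe. In GATA3 knockdown cells 1 of the 20 passed and it was lower, with a median log2 difference of -0.0039, where 2.97% of all genes passed. In HIF-1α knockdown cells 1 of the 20 passed and it was lower, with a median of -0.14, where 5.23% of all genes passed. BMAL1, the partner of CLOCK and NPAS2, had 9.96, 10.57 and 11.67 in si-Control cells, 11.24, 10.86 and 11.67 in GATA3 knockdown cells and 10.33, 11.04 and 10.68 in HIF-1α knockdown cells. Its si-Control arrays span both other groups, and the differences were 0.52 (SE 0.42) and -0.05 (SE 0.42). BMAL2, a paralogue of BMAL1, differed by 0.19 (SE 0.66) and 0.60 (SE 0.66). Without si-Control replicate 3 the differences of BMAL1 in GATA3 knockdown (0.99, limma P of 0.016) and of BMAL2 in HIF-1α knockdown (1.37, limma P of 0.020) passed. With array brightness as a covariate BMAL2 was at 1.55 in HIF-1α knockdown (limma P of 0.00037), and 4 of the 20 genes passed there, beside 7.83% of all genes. In GATA3 knockdown 2 of the 20 passed with this covariate, beside 10.1% of all genes.

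RORA, the receptor that activates BMAL1 at the elements where NR1D1 represses it, had a log2 intensity of 9.70, 10.49 and 11.98 in si-Control cells, 9.88, 9.75 and 11.36 in GATA3 knockdown cells and 8.56, 8.80 and 9.61 in HIF-1α knockdown cells. The HIF-1α knockdown arrays were below all others. RORA fell there by a log2 difference of -1.73 (SE 0.61), at an unadjusted limma P of 0.017 and an adjusted P of 0.823, and was lower on 3 of 3 slides. It no longer passed without si-Control replicate 3 (-1.12, limma P of 0.058) or HIF-1α knockdown replicate 1 (-1.51, limma P of 0.059). With the slide as a block 3 of the 20 genes passed in HIF-1α knockdown, each lower, beside 8.41% of all genes. They were RORA, the E4BP4 repressor NFIL3 and the PER-associated factor SFPQ.

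TEF, an activator at D-box elements, had 15.12 and 15.06 on 2 si-Control arrays, 14.00, 14.82 and 13.68 in GATA3 knockdown cells and 14.93, 15.02 and 15.11 in HIF-1α knockdown cells. The spot of si-Control replicate 3 was marked as non-uniform and left out. TEF fell in GATA3 knockdown by a log2 difference of -0.92 (SE 0.35), at an unadjusted limma P of 0.026 and an adjusted P of 1.00. With non-uniform spots kept the difference was -0.45 and did not pass (limma P of 0.338). It also did not pass without si-Control replicate 1 or 2 or GATA3 knockdown replicate 1 or 3, with limma P values between 0.070 and 0.086. With the scanner's processed signal TEF was at -0.87 (limma P of 0.058) and in the deposited table at -0.35 (limma P of 0.490). In both of these the 1 gene of the 20 that passed was instead HLF, a relative of TEF whose probe was well above background on 0 of 9 arrays.

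**Figure D4:**
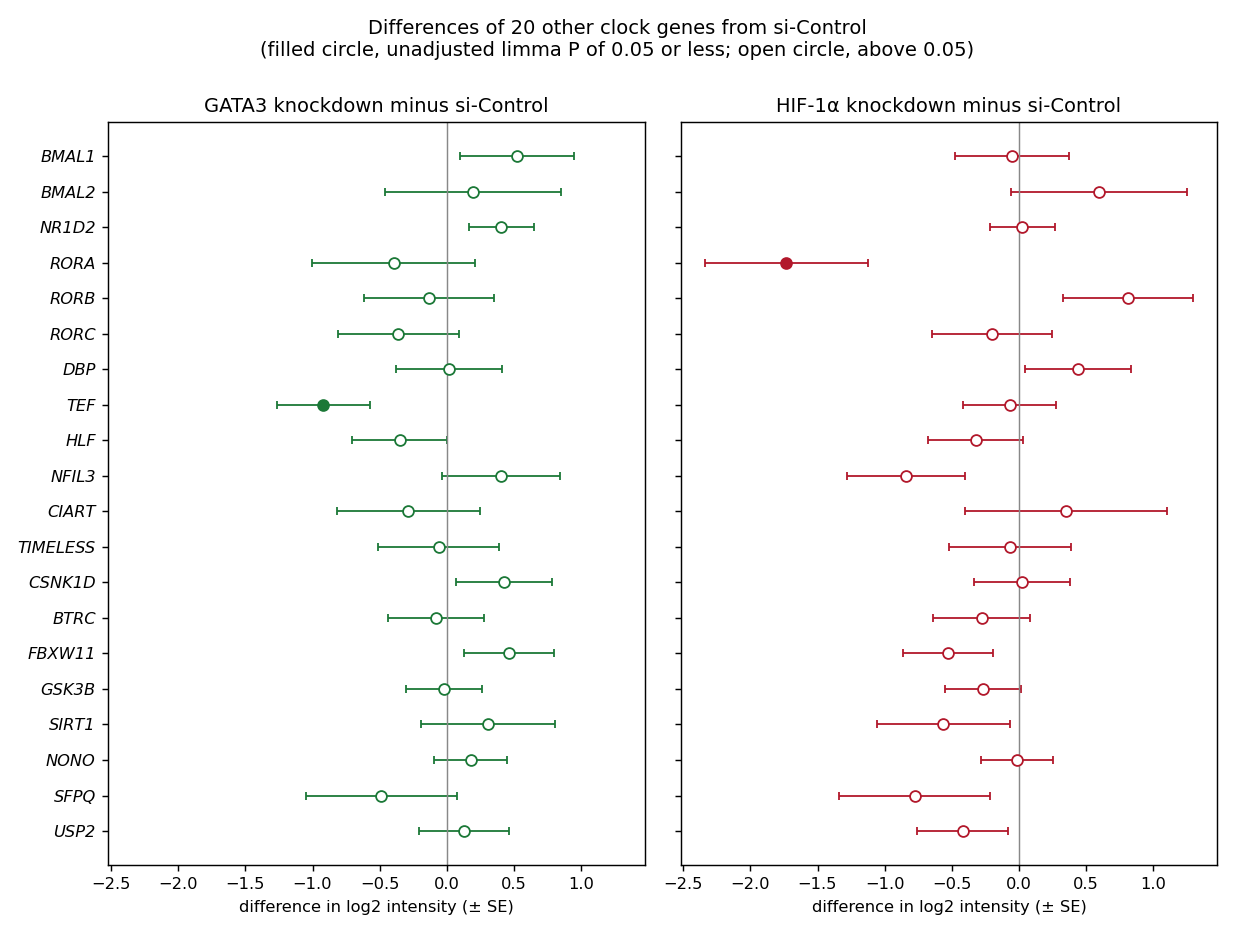
Difference in log2 intensity from si-Control (horizontal axes) for 20 other genes of the clock (vertical axis) in GATA3 knockdown (left) and HIF-1α knockdown (right), with the standard error of the limma fit as bars. The filled circles, TEF at -0.92 on the left and RORA at -1.73 on the right, passed the unadjusted P of 0.05.

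CLOCK and NPAS2 belong to the bHLH-PAS family, as do the HIF subunits. Of 11 other genes of the family 10 were measured, all but AHRR. In GATA3 knockdown cells 1 of the 10 passed, HIF3A, where 2.97% of all genes passed. HIF3A, an oxygen-regulated HIF subunit, had 14.20, 14.24 and 14.20 in si-Control cells, 13.07, 13.90 and 13.54 in GATA3 knockdown cells and 13.96, 13.78 and 14.36 in HIF-1α knockdown cells. The GATA3 knockdown arrays were below the si-Control arrays, which lay close together. HIF3A fell in GATA3 knockdown by a log2 difference of -0.71 (SE 0.27), at an unadjusted limma P of 0.026 and an adjusted P of 1.00, and its dimmer probe differed by 0.14 (SE 0.32). It did not pass without si-Control replicate 2 (limma P of 0.062) or GATA3 knockdown replicate 1 (limma P of 0.104). The median of the 10 genes was -0.17 in GATA3 knockdown, beside -0.02 over all genes. It was -0.19 in HIF-1α knockdown, beside -0.01 over all genes. There 0 of 10 passed in limma at the unadjusted P, beside 5.23% of all genes. With the slide as a block 1 did, ARNT, beside 8.41% of all genes.

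Of 5 genes considered here that are known from other cells as targets of BHLHE40 or BHLHE41, which were CCND1, PPARG, TWIST1, KLF10 and VEGFA, 5 were measured. In either knockdown 0 of 5 passed in limma at the unadjusted P. Of all genes, 2.97% passed under the GATA3 siRNA and 5.23% under that to HIF-1α. At such shares a count of 0 among 5 genes says little about the targets. The median log2 difference of the 5 was 0.25 in GATA3 knockdown cells, beside -0.02 over all genes. With HIF-1α siRNA this median was 0.19, beside -0.01 over all genes. The 5 differences were above 0 in GATA3 knockdown, as were 22759 of 47720 over all genes. The 5 ran from 0.02 (SE 0.33) for VEGFA, the angiogenic growth factor, to 0.46 (SE 0.47) for PPARG, a nuclear receptor of adipocytes. The VEGFA value is that of its brightest probe. With the mean of a gene's probes VEGFA passed in HIF-1α knockdown, but only the call was kept there, not its direction or size. By real-time RT-PCR the study reported less VEGFA transcript under hypoxia in OEC-M1 cells with GATA3 knocked down. In HIF-1α knockdown 4 of the 5 differences were above 0, as were 23196 of 47368 over all genes. The lowest was -0.71 (SE 0.41) for KLF10, a zinc finger repressor that answers to TGF-β. Without si-Control replicate 3, PPARG passed in GATA3 knockdown, as did 5961 of 47229 genes. CCND1, the cyclin that drives entry into S phase, passed in HIF-1α knockdown in that fit, as did 1672 of 47051 genes.

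The genes with the pattern most like that of BHLHE41 were taken as those with the smallest root mean square difference from it over the 9 arrays, after each gene was centred on its own mean log2 intensity, among 17529 genes. They were FAM162A (0.44), an inner mitochondrial membrane protein, SAMSN1 (0.49), an adaptor of lymphocyte signalling, and PFKFB1 (0.51), a regulatory enzyme of glycolysis. Next came KCTD11 (0.51), a ubiquitin ligase adaptor, and BNIP3 (0.53), a mitophagy receptor. BHLHE41 itself had an SD of 1.56 over the arrays. Of the 5 genes, KCTD11 was nearest to BHLHE41 in GATA3 knockdown, at 0.80 above si-Control, while the others were between -0.10 and 0.21 there. Of the other 9 genes, PER1 stood at rank 291 (1.03) and BHLHE40 at rank 3758 (1.37). This likeness is a description, since the 9 arrays and the separation of HIF-1α knockdown are shared by all genes compared.

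**Figure D5:**
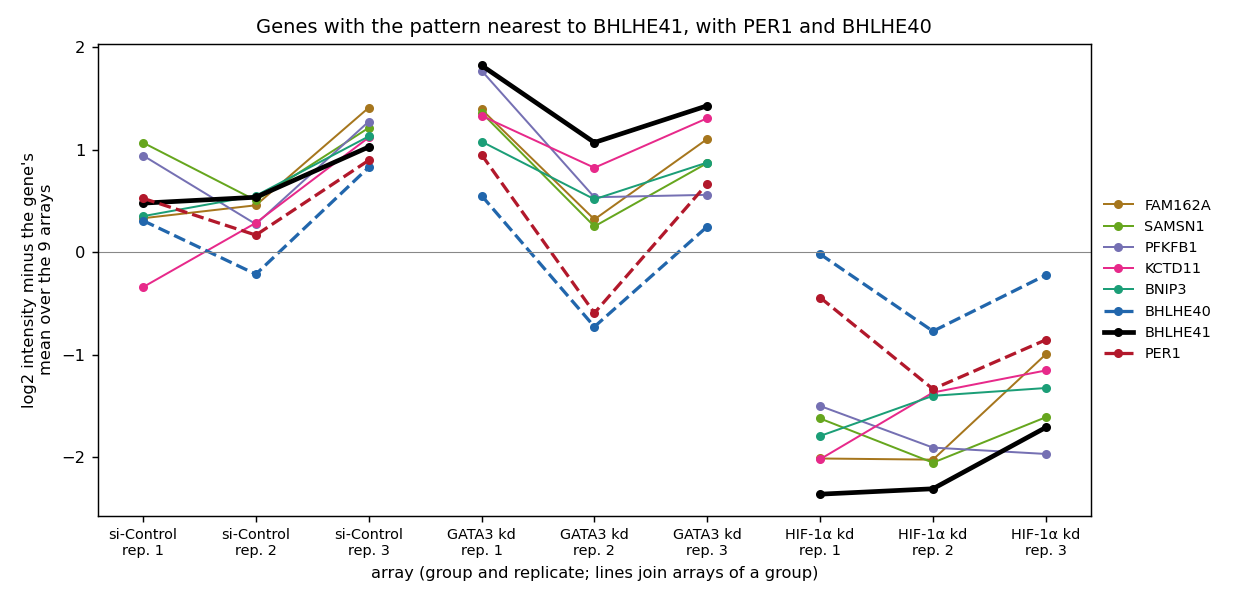
Log2 intensity less the mean of the gene over the 9 arrays (vertical axis) on each array (horizontal axis) for BHLHE41 (thick line), the 5 genes with the most similar pattern (thin lines) and PER1 and BHLHE40 (dashed lines). Lines join arrays of a group. The HIF-1α knockdown arrays are lowest for BHLHE41 and the 5 genes, which differed from si-Control by -2.69 to -1.87 there, and the pattern is shallower for PER1 and BHLHE40.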

How the data were processed

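RNA of 9 OEC-M1 samples was measured on Agilent 1-dye arrays, 3 per group. The authors deposited the scanner's spot intensity values without normalization across arrays (Agilent Feature Extraction 10.5.1.1, per the submitters' processing notes). The authors also deposited log2 values. On each array at least 99.8% of them equalled, to 0.001, the log2 of the processed signal minus 1 constant per array.

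Spots marked as non-uniform and control spots were left out. The median spot signal was background corrected with normexp (offset 50), quantile normalized and averaged by probe, in limma 3.58.1 (R 4.3.3). The brightest of a gene's probes stood for the gene. Of 58201 probes, 31104 matched a RefSeq symbol. All 3 groups were fitted together with lmFit and eBayes, with two-sided P values, called at an unadjusted P of 0.05 as in the study's methods, and adjusted by Benjamini-Hochberg over all genes. The fit was tested on simulated data. The number of arrays limits the precision. The figures used matplotlib 3.10.9.

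The genes and lists were chosen with earlier results of these data known. Named were the 10 genes, BMAL1, BMAL2, each list gene that passed, and the 5 genes most like BHLHE41. NFIL3, SFPQ, ARNT, HLF, FBXW11, CSNK1D and the genes of the target list were named after their values were seen. Equal replicate numbers mark the same slide, per the file headers, and the deviations of such arrays from their group means correlated between -0.19 and 0.72. The alternatives were the processed signal and the deposited table, no background correction, 75th percentile scaling, dim probes left out, non-uniform spots kept, the mean of a gene's probes, RefSeq mRNA probes, the slide as a block, 6 arrays per fit, eBayes with trend and robust, array brightness as a covariate and each array left out. They were extended to the bHLH-PAS and target lists and to single genes of the lists after the data were seen. Protein and probe sequences were not used here. The clock list held 1 more gene and the target list 2 more, which are not reported here, and the counts and medians of these lists are over the remaining genes only.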

Additional observations from a re-analysis of the deposited data

How the results depend on the processing

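The arrays are 3 per group, and no gene passed after adjustment in the fit of the 3 groups. Among the 12 alternatives, PER1 in HIF-1α knockdown (-1.50 to -1.19), CRY1 in GATA3 knockdown (1.07 to 1.40) and RORA in HIF-1α knockdown (-1.83 to -0.96) passed in 12 of 12, CLOCK in GATA3 knockdown in 7 and TEF in 7. BHLHE41 kept its direction in both comparisons under the 12 alternatives and the 9 fits without 1 array. Since it was selected on these same arrays, this is a description only. The cause of the changes below was not tested. In GATA3 knockdown the count of the 9 genes that passed was 1 rather than 2 with the mean of a gene's probes, 6 arrays per fit, or trend and robust, and from 1 to 3 with 1 array left out. With the processed signal or the deposited table it was 2, but NPAS2 took the place of CLOCK. In HIF-1α knockdown it was 2 with the slide as a block (PER1 and BHLHE40) or array brightness as a covariate (PER1 and PER3), and 1 in each fit without 1 array. Of the other clock genes, in GATA3 knockdown 0 passed with non-uniform spots kept or 6 arrays per fit and 2 with array brightness (BMAL1 and FBXW11), and in HIF-1α knockdown 3 passed with the slide block (paired by slide) and 4 with array brightness (BMAL1, BMAL2, CSNK1D and RORA). With 1 array left out they ranged from 0 to 3 and from 0 to 4. The bHLH-PAS count in GATA3 knockdown was 0 with the mean of probes and 0 to 2 with 1 array left out. In HIF-1α knockdown it was 1 with the mean of probes, the slide block or array brightness, and 0 to 1 with 1 array left out. The count of BHLHE40 and BHLHE41 targets in GATA3 knockdown was 1 with array brightness and 0 to 1 with 1 array left out. In HIF-1α knockdown it was 1 with the mean of probes (VEGFA), 2 with array brightness and 0 to 1 with 1 array left out. The difference of BHLHE41 between the knockdowns was 4.03 with the processed signal, 4.01 in the deposited table and 3.41 to 3.75 with 1 array left out. BMAL1 in HIF-1α knockdown turned to 0.53 with array brightness (limma P of 0.019). Over all genes, 1418 passed in GATA3 knockdown, against 3050 with the processed signal, 2889 in the deposited table, 2381 with the slide block, 928 with 6 arrays per fit, 4834 with array brightness, 723 among RefSeq mRNA probes, where fewer were tested, and 951 to 5961 with 1 array left out (5961 without si-Control replicate 3). In HIF-1α knockdown 2478 passed, against 3983 with the slide block, 3709 with array brightness, 1072 among RefSeq mRNA probes and 1403 to 4800 with 1 array left out (4800 without si-Control replicate 1, 1403 without HIF-1α knockdown replicate 1). After adjustment, the slide block gave 10 genes in HIF-1α knockdown, among them the targeted HIF1A (adjusted P 0.042), and array brightness gave 24 in GATA3 knockdown.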
